A study of Mus musculus with 40 samples.

Results

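Gene copies named for bile acid enzymes were followed in the RNA of bacteria from the mouse cecum. They were taken as every row of 5 bacterial genome tables whose symbol, without its copy number, is cbh or begins with bai. This gave 9 copies among 16737 features, of which 3 are cbh and 6 are bai. F. rodentium holds cbh_1, cbh_2 and baiA. Acetatifactor holds cbh, baiA, baiN_1 and baiN_2. L.bacterium335 holds baiN_1 and baiN_2. The rule found 0 copies in D. muris and 0 in X. muris, and among bai genes it found only baiA and baiN.

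The mice were C57BL/6, began a Western-type diet (the Total Western Diet) at 3 weeks of age and ate it for 6 weeks. For the next 3 weeks all groups stayed on that diet, with broccoli powder making up 0, 0.5, 1 or 2.5% of it. Each group has 10 libraries of total RNA from cecal contents, depleted of ribosomal RNA with a QIAseq FastSelect kit and prepared with the KAPA RNA HyperPrep kit. The design asks how the dose of broccoli changes the RNA of the cecal bacteria. The group without broccoli (0%) is the control for every comparison, so the comparisons share its libraries.

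The liver makes bile acids and joins them to taurine or glycine before they reach the gut. Bacterial bile salt hydrolases, which annotation programs often name cbh for conjugated bile acid hydrolase, cut this bond and release the free bile acid. Gut bacteria that carry the bai genes can then remove a hydroxyl group from the steroid ring and so turn primary into secondary bile acids. BaiA is a dehydrogenase that oxidises a ring hydroxyl of the bile acid early in this route, and BaiN is a flavoprotein assigned to its reductive steps. A symbol in these tables says which known enzyme a gene was matched to, and neither enzyme activity nor bile acids were measured here.

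Reads were deposited as raw counts of each feature. A library had between 236483 and 5107197 counts over all 6 deposited genome tables (median 825724). Totals on F. rodentium had a median of 511338 at 0% and 75068.5 at 2.5%, where they ran from 161 to 527971, while those on L.bacterium335 had a median of 83651 at 0% and 525404 at 2.5%. Acetatifactor was the shallowest of the 3 genomes at 0% (median 35241) and reached a median of 129471 at 2.5%. To separate a gene from the amount of its bacterium, each copy was expressed in CPM, its count for every 1000000 counts on its own genome, with TMM factors, in libraries with at least 10000 counts there. Replicates 6 and 9 of the 2.5% group fell below that minimum on F. rodentium, so its scaled values at 2.5% rest on 8 libraries. At 0% the counts were also narrowly spread, the top 5 features holding 76.8% (median) in L.bacterium335 and 56.8% in Acetatifactor, against 15.6% in F. rodentium. Replicate 9 of the 2.5% group stood apart in L.bacterium335, with 79.1% of its counts on 5 features, against a group median of 18.1%. The origin of such counts was not tested. Of the 9 copies, 4 passed the filter on low counts and were tested scaled to their genome, and the other 5 are described by unscaled counts.

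In F. rodentium the bile salt hydrolase gene cbh_1 took up less of the bacterium's RNA on average in each broccoli group. The difference was called at 0.5% and at 2.5% but not at 1%. Without broccoli its level ran from 380 to 1044 CPM, with a median of 728 and a mean of 715 ± 223 (SD, n = 10). At 0.5% it ran from 123 to 467 CPM, with a median of 281 and a mean of 285 ± 110.1 (SD, n = 10). All 10 of these libraries lay below the 0% mean and 8 lay below the lowest 0% library, so the groups overlap only in part. At 1% the level ran from 294 to 768 CPM, with a median of 514 and a mean of 512 ± 162 (SD, n = 10), and 2 of the 10 libraries lay below the lowest 0% library. At 2.5% it ran from 74.2 to 554 CPM, with a median of 267 and a mean of 303 ± 171 (SD, n = 8). There, 8 of 8 libraries lay below the 0% mean and 6 below the lowest 0% library. The lowest value, in replicate 1, was 3 counts. Replicates 7 and 8, the deepest of that group on F. rodentium, were at 554 and 535 CPM, within the 0% range. With counts pooled over libraries, which gives deep libraries more weight, the level was 0.43, 0.51 and 0.59 times that of 0% at 0.5, 1 and 2.5%.

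**Figure D1:**
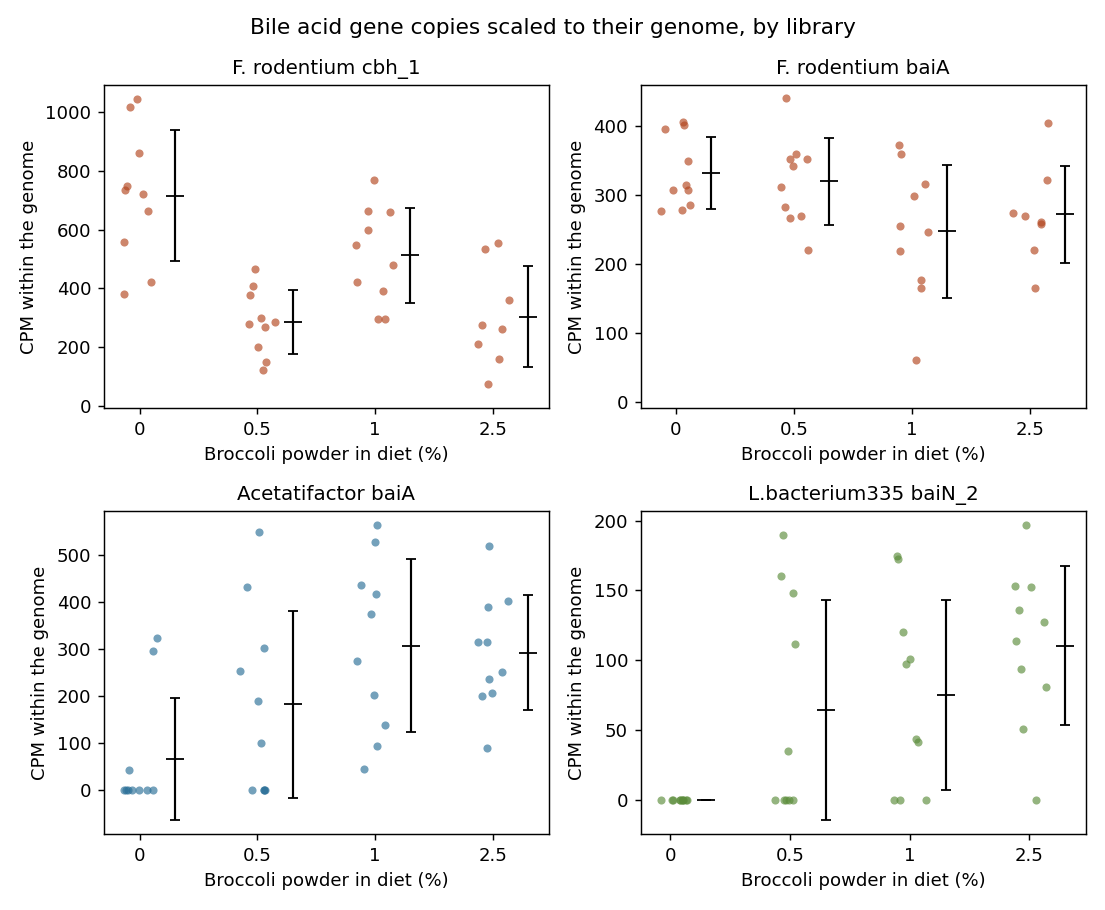
Level of the 4 copies that passed the low-count filter, in CPM within their own genome (vertical axis), at each percent of broccoli powder (horizontal axis). Each point is 1 library and the black marks are the mean ± SD. F. rodentium cbh_1 has medians of 728, 281, 514 and 267 CPM from 0 to 2.5% broccoli, while L.bacterium335 baiN_2 is at 0 in all 10 libraries without broccoli.

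The cbh_1 gene fell by 1.32 ± 0.25 (SE) on the log2 scale at 0.5% (edgeR quasi-likelihood test, adjusted p = 0.000402) and fell by 1.15 ± 0.27 at 2.5% (edgeR, adjusted p = 0.00546). These are among the larger decreases in this genome. Of 1689 tested genes, only 9 had a lower fold change at 0.5% and 32 at 2.5%, while the median over all tested genes was 0.02 and 0.01. The share of tested genes called lower was 4.91% at 0.5% and 4.03% at 2.5%. At 1% the difference of cbh_1 was -0.53 ± 0.25 and missed the test (edgeR, adjusted p = 0.547). At that dose edgeR called 0 genes of F. rodentium lower (0.0%) and 8 of 1689 higher (0.474%). The slope on the dose was -0.35 ± 0.12 per 1% of broccoli and missed the test (edgeR, adjusted p = 0.0777, with 2.61% of genes called lower). The higher level at 1% than at 0.5%, a difference of 0.79 ± 0.25, was not called either (edgeR, adjusted p = 0.168, with 0.296% of genes called), nor were 2.5% against 1% (-0.62, edgeR adjusted p = 0.321, 0.77% called) and 2.5% against 0.5% (0.17, edgeR adjusted p = 0.832, 3.37% called). The call at 2.5% is the narrower, with an adjusted p of 0.0483 by edgeR when libraries needed 50000 counts on the genome.

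The baiA gene of F. rodentium, annotated as the bile acid dehydrogenase, showed no called difference from 0% at any dose. Its level without broccoli ran from 277 to 406 CPM, with a median of 311 and a mean of 332 ± 52.0 (SD, n = 10). The medians were 327 CPM at 0.5%, 251 CPM at 1% and 266 CPM at 2.5%, and the libraries of every dose overlapped those of 0%. Below the lowest 0% library lay 3 of 10 libraries at 0.5%, 6 of 10 at 1% and 6 of 8 at 2.5%. Above the highest lay 1, 0 and 0. With counts pooled over libraries, the level was 0.96, 0.97 and 0.82 times that of 0%. The lowest single value was 60.9 CPM in replicate 1 of the 1% group. The log2 differences from 0% were -0.05 ± 0.18 at 0.5%, -0.35 ± 0.19 at 1% and -0.30 ± 0.20 at 2.5% (edgeR, adjusted p = 0.909, 0.618 and 0.371). The shares of genes called in either direction were 8.47%, 0.474% and 9.41%. The sign at 0.5% depends on the scaling, the value being 0.0028 with RLE factors.

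**Figure D2:**
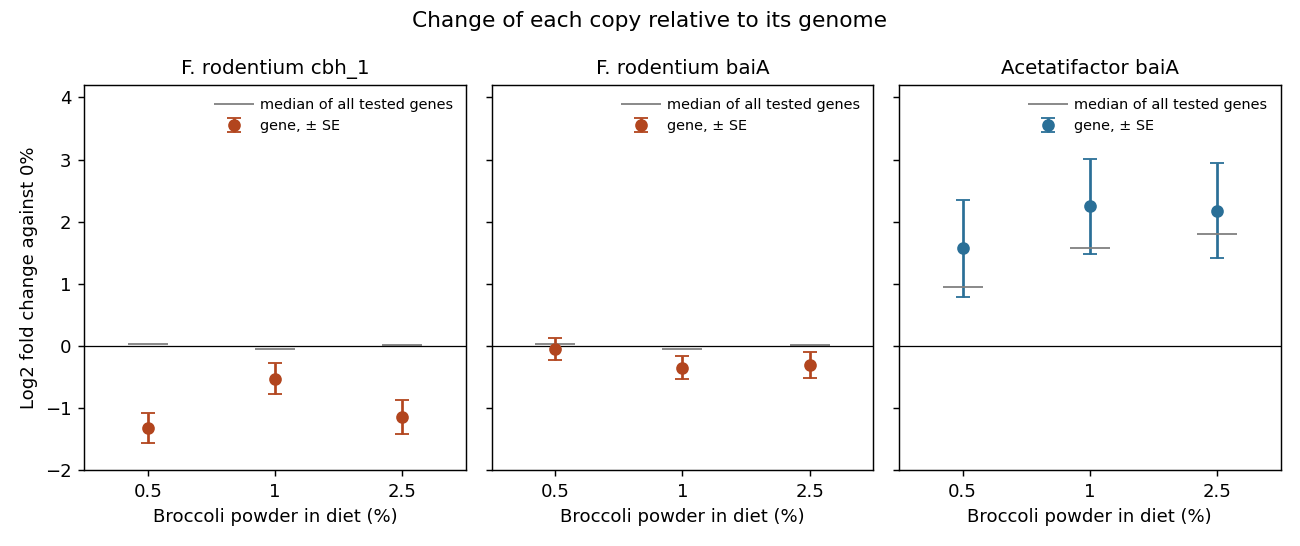
Log2 fold change against 0% broccoli (vertical axis) of 3 copies at each dose (horizontal axis), scaled to the genome with TMM factors. Points are edgeR fold changes with SE, and grey bars are the median of all tested genes of the same genome. F. rodentium cbh_1 lies at -1.32, -0.53 and -1.15 with genome medians near 0, while Acetatifactor baiA lies at 1.57, 2.25 and 2.18 in a genome whose medians are 0.95, 1.58 and 1.81.

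The counts of cbh_1 and baiA within the same library give the same comparison without any scaling factor. The ratio was chosen after the data had been seen and uses the counts already tested above, so its p-values are not separate support. Since gene lengths are not used, it compares libraries, not the levels of the genes. The log2 ratio of cbh_1 to baiA, with 0.5 added to each count, was 1.05 ± 0.56 (SD, n = 10) at 0% and ran from -0.08 to 1.57. It was -0.25 ± 0.62 (SD, n = 10) at 0.5%, where it ran from -1.20 to 0.50 and 5 libraries lay below the lowest 0% value. The median count ratio was 2.47 at 0%, 0.850 at 0.5%, 2.27 at 1% and 1.01 at 2.5%. The ratio fell by 1.30 on the log2 scale at 0.5% (permutation test, adjusted p = 0.00087 over 3 doses) and fell by 1.07 at 2.5% (exact permutation test, n = 8 against 10, adjusted p = 0.0095). At 1% the difference was 0.05 (permutation test, adjusted p = 0.900), with libraries spread from -0.29 to 3.07. A fall of cbh_1 and a rise of baiA cannot be told apart by this ratio alone, and the values scaled to the genome are those given for each gene above.

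**Figure D3:**
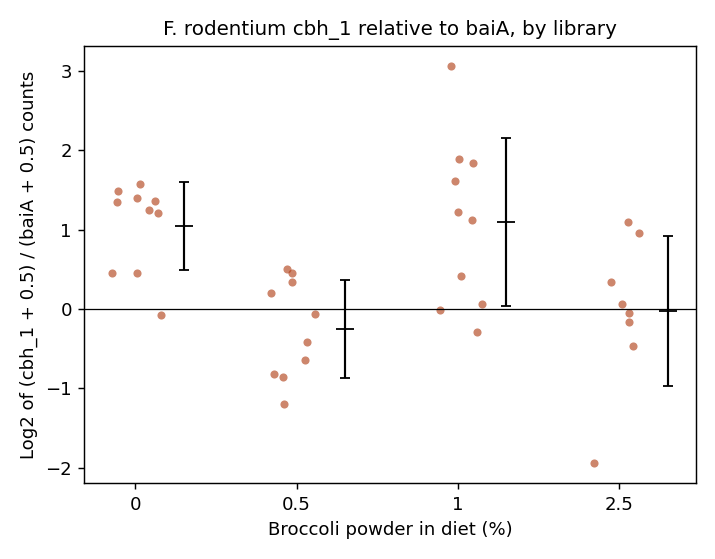
Log2 ratio of cbh_1 to baiA counts of F. rodentium, with 0.5 added to each (vertical axis), per library at each percent of broccoli powder (horizontal axis). Each point is 1 library and the black marks are the mean ± SD, at 1.05, -0.25, 1.09 and -0.02. The 0.5% and 2.5% groups sit lower than the 0% group, and the 1% group is the most spread.

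Unscaled counts also depend on how much of the bacterium's RNA was present. Fewer bacteria and less RNA per bacterium cannot be told apart in such samples. Counts of cbh_1 ran from 88 to 1392 per library at 0% (median 280), from 47 to 1425 at 0.5% (median 225.5), from 20 to 386 at 1% (median 132) and from 0 to 347 at 2.5% (median 19.5). At 2.5% most of these counts came from replicate 7 with 197 and replicate 8 with 347, and every other library had 46 or fewer. Counts of baiA had medians of 162.5, 215.5, 58.5 and 24 in the same order. At 2.5% the mean log2 count fell by 4.16 for cbh_1 and fell by 3.21 for baiA (permutation test, adjusted p = 0.00699 and 0.00763 over all features of the genome). By this measure 73.6% of the features of F. rodentium were called lower, and the median over all features was -2.59. Neither gene was called at 0.5% or at 1%, where 0.0% of features were called lower. The remaining copy, cbh_2, had 0 counts in all 40 libraries, which allows at most 0.459 CPM over the 0% libraries (3 counts, on TMM-adjusted totals).

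For each tested copy, the 3 genes with a symbol whose CPM was most alike over libraries were listed as a description. The genes nearest to cbh_1 were pepD_2 (a dipeptidase, Spearman rho 0.89), rnr (ribonuclease R, 0.88) and htpG (a chaperone, 0.86) over 38 libraries and 949 genes with a symbol. All genes of a genome share 1 scaling factor in each library. The 3 genes were picked for following cbh_1 over the same libraries, dose groups included. A dose difference like that of cbh_1 is therefore built into the choice. Their p-values against 0% are not separate support for the change of cbh_1. At 0.5% pepD_2 fell by 1.00 and rnr fell by 0.64, while htpG differed by -0.67 (edgeR, adjusted p = 0.00802, 0.0303 and 0.0547). At 2.5% rnr fell by 0.72 and htpG fell by 0.89, while pepD_2 differed by -0.64 (edgeR, adjusted p = 0.0224, 0.0174 and 0.119). None of the 3 was called at 1%, with values of -0.19, -0.31 and -0.34 for pepD_2, rnr and htpG (edgeR, adjusted p = 0.863, 0.663 and 0.693). The baiA gene of F. rodentium had no close companion, its highest values being 0.58 for ptsH, 0.56 for ybhA and 0.54 for eno, of which ptsH encodes the phosphocarrier of sugar uptake and eno the glycolytic enzyme enolase.

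In Acetatifactor, baiA was scarcely counted without broccoli and was present in every library at 1% and at 2.5%. At 0% it had 14 counts in all, in replicates 3, 8 and 9 (1, 6 and 7 counts). Its level was 66.0 ± 129 CPM there (SD, n = 10, median 0, highest 323). At 0.5% the level ran from 0 to 550 CPM, with a median of 145 and 6 of 10 libraries with a count. At 1% it ran from 44.5 to 563 CPM with a median of 325, and at 2.5% from 89.9 to 520 CPM with a median of 283 and a mean of 293 ± 123 (SD, n = 10). All 10 libraries at 2.5% lay above the 0% mean and 3 above its highest library, so the groups overlap through replicates 8 and 9 of the 0% group.

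Acetatifactor baiA rose by 2.25 ± 0.77 on the log2 scale at 1% and by 2.18 ± 0.76 at 2.5% (edgeR, adjusted p = 0.0112 and 0.00981). At 0.5% the difference was 1.57 ± 0.78 and missed the test (edgeR, adjusted p = 0.121). It passed the low-count filter mainly through the broccoli groups, which favours a higher value there, so the calls against 0% carry little weight. Of all tested genes of Acetatifactor, 21.6% were called higher at 0.5%, 49.5% at 1% and 54.5% at 2.5%, and 3.49%, 18.2% and 22.5% lower. The median over all tested genes was 1.58 at 1% and 1.81 at 2.5%, and 251 and 315 of 773 genes rose further than baiA. With RLE factors baiA rose by 4.13 at 2.5% and the genome median was 3.84, with 543 genes called higher and 21 lower, against 421 and 174 with TMM factors. The same change of factors moved the medians of L.bacterium335 from 7.94 to 9.20 (1147 higher and 33 lower, against 1077 and 208) and of F. rodentium from 0.01 to 0.12 (111 higher and 45 lower, against 91 and 68). Without 0% replicate 8 the value of baiA at 0.5% was 2.50 (edgeR, adjusted p = 0.0285), without replicate 9 2.43 (0.0255). With the total on the genome as a covariate neither call held, at 1.96 for 1% and 1.63 for 2.5% (edgeR, adjusted p = 0.0544 and 0.206). The slope per 1% of broccoli was 0.59 ± 0.30 and missed the test (edgeR, adjusted p = 0.0751, with 41.5% of genes called higher). Differences between doses were 0.68 for 1% against 0.5%, -0.07 for 2.5% against 1% and 0.61 for 2.5% against 0.5%, none of them called (edgeR, adjusted p = 0.635, 0.999 and 0.500, with 0.259%, 0.0% and 9.18% of genes called). The most alike genes were adhB_1 (0.85), cmk_1 (cytidylate kinase, 0.84) and kduI (0.83) over 40 libraries and 329 genes with a symbol.

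The other copies of Acetatifactor were counted mainly at 2.5%. Its cbh gene, the only hydrolase copy with counts outside F. rodentium, had 4 counts at 0% (all in replicate 3), 4 at 0.5%, 8 at 1% and 88 at 2.5%. At 2.5% it was counted in 8 of 10 libraries, from 0 to 21 with a median of 9, against 1 of 10 at 0%. The baiN_1 gene had 4, 13, 37 and 139 counts in the same order, all 13 at 0.5% being in replicate 8. The baiN_2 gene had 0, 8, 10 and 156 counts, of which 57 at 2.5% came from replicate 10 and 41 from replicate 2. The 0% and 2.5% groups overlap in all 3 genes. Replicate 8 of the 2.5% group had 0 counts of each, as had replicate 9 of cbh, replicates 1 and 7 of baiN_1 and replicate 7 of baiN_2.

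**Figure D4:**
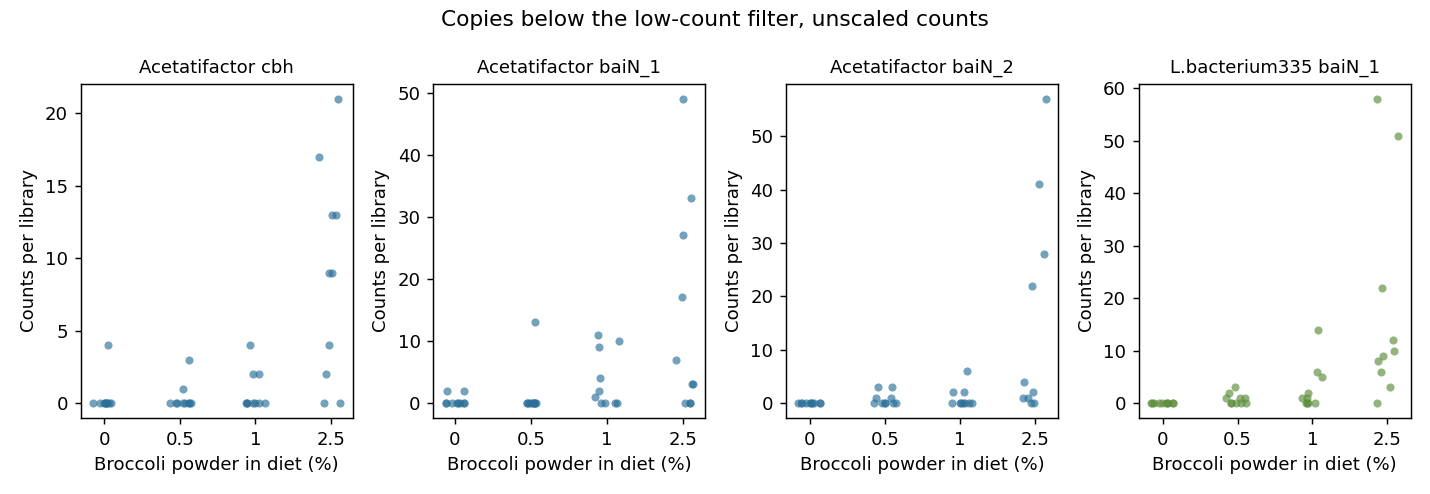
Unscaled counts per library (vertical axes, a scale of its own for each gene) of the 4 copies with counts that did not pass the low-count filter, at each percent of broccoli powder (horizontal axis). Each point is 1 library. The 2.5% group has the most counts of each gene, and its highest libraries have 21 counts of Acetatifactor cbh, 49 of its baiN_1, 57 of its baiN_2 and 58 of L.bacterium335 baiN_1.

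Unscaled counts of all 4 Acetatifactor copies rose at 2.5%. The mean log2 count rose by 4.40 for baiA, 2.65 for baiN_2, 2.45 for cbh and 2.35 for baiN_1 (permutation test, adjusted p = 0.000884, 0.00196, 0.00434 and 0.00863 over all features of the genome). Since baiN_2 had no count at 0%, its p depends on how many libraries of the dose had any count, and its test carries little weight. With no scaling, 71.6% of all features of Acetatifactor were called higher, and the median difference over all features was 2.12. At 1%, where 41.5% of features were called higher, baiA rose by 3.45 (permutation test, adjusted p = 0.00204), and baiN_1, baiN_2 and cbh differed by 1.21, 0.60 and 0.32 (adjusted p = 0.0901, 0.315 and 0.712). At 0.5% none of the 4 was called and 0.0% of features were. Relative to TMM-adjusted totals of the genome, the 2.5% group had 3.57 times the cbh of the 0% group, with a 95% exact interval of 1.35 to 13.4, and 5.64 times the baiN_1, with an interval of 2.15 to 21.0. Relative to plain totals, a choice made after the data were seen, the ratios were 6.21 (2.34 to 23.3) and 9.81 (3.75 to 36.5). For baiN_2, which had no count at 0%, the level at 2.5% was at least 8.44-fold higher with TMM-adjusted and 14.7-fold with plain totals, taking 3 counts over the group as the floor. These intervals and floors cover counting error only.

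In L.bacterium335 the baiN copies were counted only in groups that ate broccoli. The baiN_2 gene had 0 counts in all 10 libraries at 0%, out of 757208 counts on the genome, which allows up to 3.96 CPM of plain totals over the group, or 3.67 CPM of TMM-adjusted ones. It was counted in 5 libraries at 0.5% (0 to 43 counts, median 1), in 7 at 1% (0 to 62, median 14) and in 9 at 2.5% (0 to 232, median 91.5). At 2.5% its level was 110.4 ± 56.7 CPM (SD, n = 10), and the library at 0 was replicate 9. Since the whole 0% group was at 0, each dose overlaps it through the libraries without a count.

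Taking 3 counts over the 0% group as the floor, L.bacterium335 baiN_2 was at least 30-fold higher at 0.5%, 31-fold at 1% and 36.1-fold at 2.5%. These bounds are on TMM-adjusted totals. With plain totals they were 21.9-fold, 29.9-fold and 46.9-fold. The gene passed the low-count filter only through the groups with broccoli, so a test against 0% has no weight for it and none is given. In its genome 79.4%, 78.4% and 77.8% of tested genes were called higher by edgeR. Among the 903 tested genes with no count at 0%, the median bound was 40.6-fold at 0.5% and 48.1-fold at 2.5%, and 580 and 603 of them had a higher bound than baiN_2. The slope per 1% of broccoli, which includes the same 0% group, was 0.98 ± 0.38 and turned to -0.64 with the total on the genome as a covariate (33.7% of genes were called with a positive slope). No difference between the 3 doses was called, the values being 0.17 for 1% against 0.5%, 0.40 for 2.5% against 1% and 0.57 for 2.5% against 0.5% (edgeR, adjusted p = 0.999, 0.801 and 0.700, with 0.145%, 8.38% and 13.2% of genes called). The most alike genes were cheR_1 (a chemotaxis methyltransferase, 0.90), guaB (an enzyme of guanine nucleotide synthesis, 0.89) and csp (0.88) over 40 libraries and 631 genes with a symbol.

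The second copy of L.bacterium335, baiN_1, was the rarer. It had 0, 8, 29 and 179 counts from 0 to 2.5%, in 0, 5, 6 and 9 libraries, with up to 58 counts in replicate 10 at 2.5%. Scaled to the genome it was at least 2.64-fold, 3.93-fold and 6.70-fold higher than at 0%. Its mean unscaled log2 count was higher by 1.29 at 1% and by 3.46 at 2.5%, and that of baiN_2 by 3.08 and 5.81. Both copies had no count at 0%, so these values are given with no test. With no scaling, 45.3% and 73.6% of features were called higher at these doses, and 34.4% at 0.5%.

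Whether the 2 baiA copies responded unlike each other was tested on the difference of their log2 CPM within each library, over 9 comparisons of copies from different genomes. Acetatifactor baiA changed by 2.99 more than F. rodentium baiA at 1% and by 2.91 more at 2.5% (permutation test, adjusted p = 0.00156, and exact permutation test with n = 8 against 10, adjusted p = 0.00195). At 0.5% the difference was 1.25 and missed the test (permutation test, adjusted p = 0.174). The other 6 comparisons set a baiA copy against L.bacterium335 baiN_2, which encodes a different enzyme. Their size is set in part by the prior count of 2, since baiN_2 had no count at 0%, and they are given with no test. Acetatifactor baiA was counted in only 3 of 10 libraries at 0%, so the prior count sets part of its values too. The tests of the 2 baiA copies therefore carry little weight. F. rodentium baiA minus baiN_2 changed in value by -2.09, -3.21 and -4.44 from 0.5 to 2.5%, the last being -5.38 with RLE factors, and Acetatifactor baiA minus baiN_2 by -0.84, -0.23 and -1.13. The genome medians of Acetatifactor and L.bacterium335 also lie above that of F. rodentium, so these values compare the copies together with their genomes.

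Summed over bacteria, the median number of hydrolase counts per library was lower in each broccoli group than at 0%, while the medians of bai counts lay on both sides of the 0% value. The cbh sum ran from 88 to 1392 counts per library at 0% (median 280), from 47 to 1425 at 0.5% (median 225.5), from 24 to 386 at 1% (median 132) and from 1 to 347 at 2.5% (median 34). At 2.5%, 8 of 10 libraries lay below the lowest 0% library. As CPM over the 6 tables, the medians were 468, 228, 199.7 and 29.5. The difference in mean log2 sum from 0% was -0.69, -1.51 and -3.26. These sums are given as a description with no test.

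The bai sum ran from 34 to 510 counts per library at 0% (median 164), from 65 to 1019 at 0.5% (median 228), from 25 to 428 at 1% (median 132) and from 22 to 464 at 2.5% (median 211.5). The groups overlap at every dose. Differences in mean log2 sum were 0.71, -0.17 and 0.26, and as CPM over the 6 tables they were 0.15, -0.26 and -0.19, so the sign at 2.5% depends on the scaling. The bacteria that supplied these counts differed between the doses. F. rodentium supplied 99.2% of the bai counts at 0%, 93.8% at 0.5%, 71.3% at 1% and 17.9% at 2.5%. L.bacterium335 supplied 0% without broccoli and 49.4% at 2.5%, and Acetatifactor went from 0.845% to 32.7%. At 2.5%, L.bacterium335 gave over 50% of the bai counts in 5 of 10 libraries and Acetatifactor in the other 5.

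**Figure D5:**
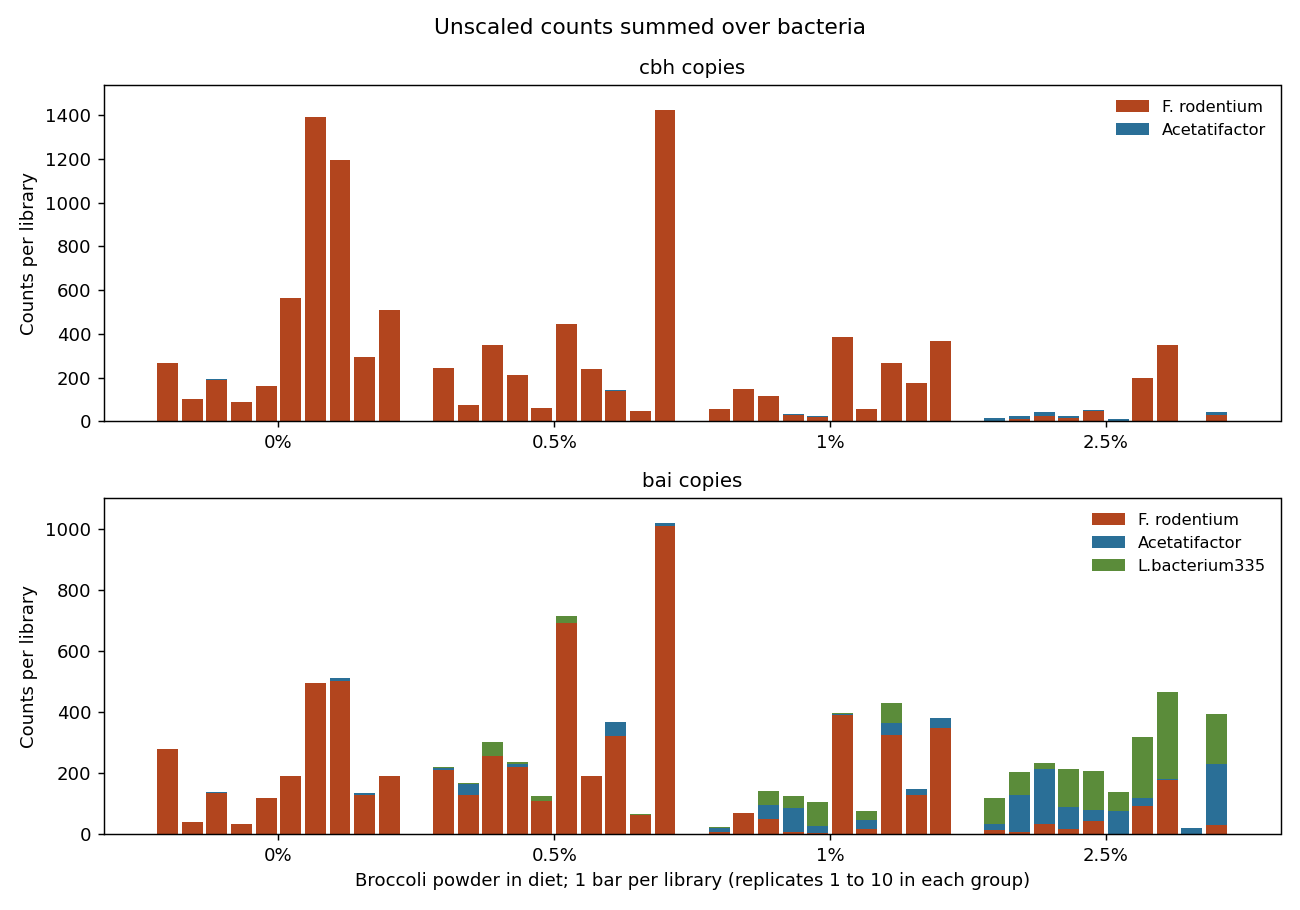
Unscaled counts of cbh copies (upper panel) and bai copies (lower panel) summed over bacteria (vertical axis), 1 bar per library in groups by percent of broccoli powder (horizontal axis), coloured by the genome that supplied them. The median cbh sum is 280 counts at 0% and 34 at 2.5%, while the bai sum has medians of 164 and 211.5 and its main source passes from F. rodentium to the other genomes.

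The bai total also joins genes with different roles. The summed baiA counts were 2127 at 0%, 3289 at 0.5%, 1586 at 1% and 877 at 2.5%, and the summed baiN counts were 4, 120, 305 and 1439. Of the baiA counts, Acetatifactor gave 0.658% at 0% and 52.8% at 2.5%, where it gave over 50% in 7 of 10 libraries. Of the cbh counts, F. rodentium gave 99.9% at 0% and 88.4% at 2.5%. Acetatifactor gave a median of 33.5% per library at 2.5%, with a range of 0 to 100% over the 10 libraries.

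Other genes that bear on bile acids were read from 3 lists. Of other bile acid enzyme and transport symbols (such as bsh, hdhA and bilR), 0 matched in the 5 tables. Of efflux pump genes, some of which export bile salts in other bacteria, 8 of 9 passed the filter in F. rodentium, and 2 were called higher at 0.5% (3.55% of genes), 0 at 1% and 2 at 2.5%. At 2.5% mepA_1 rose by 2.21 ± 0.50 and mepA_3 rose by 1.94 ± 0.59 (edgeR, adjusted p = 0.00388 and 0.0308). These are copies of a family of multidrug exporters, and the list's median was 0.77 against 0.01 over the genome, with 5.39% of genes called higher. In Acetatifactor 2 of 15 were tested. At 2.5%, where 54.5% of genes were called higher and the genome median was 1.81, mdtC rose by 3.23 ± 0.85 and acrB differed by 1.33 (edgeR, adjusted p = 0.00105 and 0.0546). In L.bacterium335 6 of 29 were tested and all 6 were called higher at each dose, where 79.4%, 78.4% and 77.8% of genes were, with a median of 7.72 at 2.5% against 7.94 over the genome. Of its 1384 tested genes, 903 had no count at 0% and passed the filter only through the broccoli groups. Calls against 0% in this genome therefore carry little weight. In D. muris 12 of 25 were tested and edgeR called 0 at each dose, where 4.96%, 6.23% and 10.6% of genes were called. Of sodium proton antiporter genes, which exchange ions across the membrane, 1 of 3 was tested in D. muris and was not called at 2.5% (nhaD, -0.48, edgeR adjusted p = 0.561).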

How the data were processed

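Raw counts per feature were deposited by the authors in 6 tables, 1 per bacterial genome, and are whole numbers with no normalization. The sources used here do not state the aligner, the counting program, the builds or how reads shared between copies or genomes were treated, so the counts of numbered copies (cbh_1 and cbh_2, baiN_1 and baiN_2) are uncertain. All 40 libraries were assigned to 4 groups of 10 by the treatment label. The labels do not say that each library is a separate mouse, and p-values measure the spread between libraries. Among 180 pairs of libraries within groups 0 were identical.

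Genomes were fitted one by one with edgeR 4.0.16 (R 4.3.3): libraries with at least 10000 counts on the genome, filterByExpr, TMM factors, stable RNA features left out, quasi-likelihood tests on all groups, two-sided, Benjamini-Hochberg adjustment over all tested genes of the genome and contrast, threshold 0.05. The standard error is the fold change divided by the root of F. Unscaled counts were compared as mean log2(count + 1) by two-sided permutation tests (100000 resamples, smallest p they can give 1e-05, numpy 2.4.6) over all libraries. These were adjusted over all features of the genome with a count, in place of the copies alone as first planned, and sums over bacteria were left without a test. Groups of fewer than 10 libraries were enumerated exactly. On simulated counts for the 2.5% comparison, 4-fold changes were recovered for 97.9% of changed genes in F. rodentium (1658 genes), 69.1% in Acetatifactor (755) and 75.0% in L.bacterium335 (1279), and 2-fold changes for 59.0%, 10.2% and 3.70%. All simulated libraries were drawn from 1 average profile per genome. The rates therefore do not cover the narrow spread of counts at 0% in Acetatifactor and L.bacterium335.

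The copies, the gene lists and the tests were chosen with earlier results of these data known. Every copy is named, with the 3 genes of highest Spearman correlation for each tested copy and up to 3 called members per list at 2.5%. The 6 called pump genes of L.bacterium335 are given as a count, since most of its genes had no count at 0%. The alternatives were RLE or no factors, DESeq2 1.42.0, other filters and minimum totals, a covariate, other pseudocounts, and libraries left out. Alistipes was outside the rule and enters only the totals over 6 tables and 1 value in the closing section. No bacterial sequence or coordinate was used here.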

Additional observations from a re-analysis of the deposited data

Results flagged for a closer look

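The cbh counts summed over bacteria reached 1425 in replicate 10 of the 0.5% group, while the other 9 libraries of that group lay between 47 and 444. Its distance from the nearest library was 0.712 of the group's range. Of 28 groups of values checked in this way it was the only one marked, and chance marks about 1 in 20. The sum is unscaled, and this library had the most counts on F. rodentium in its group, 4882829 against a median of 780314. Scaled to the genome, its cbh_1 level was 377 CPM, within the group's range of 123 to 467 CPM.

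The change of baiA against 0% differed between Acetatifactor and F. rodentium by 2.99 at 1% and 2.91 at 2.5% on the log2 scale, by permutation tests of the difference itself. Acetatifactor baiA was counted in only 3 of 10 libraries at 0%, so these tests carry little weight. The values of F. rodentium baiA minus L.bacterium335 baiN_2 were -2.09 at 0.5%, -3.21 at 1% and -4.44 at 2.5%, but baiN_2 had no count at 0%, so their size is set in part by the prior count of 2. In both pairs the genome medians differ in the same direction.

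A baiN gene of Alistipes, a genome outside the comparisons above, had 79 counts at 2.5%, in 9 of 10 libraries and out of 161531 counts on the genome. It had 3 counts at 1%, 1 at 0.5% and 0 at 0%, where the genome had only 1620 counts in all, so that a level of up to 1852 CPM would not have been seen.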

How the results depend on the processing

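No paired analysis was possible because the labels give no replicate number shared between groups. F. rodentium cbh_1 kept its calls at 0.5% (-1.36 to -1.24) and 2.5% (-1.17 to -0.95) under all 9 alternatives, and its slope was called in 5 of 38 fits that left out 1 library (range -0.44 to -0.31), those without 0.5% replicates 5, 7 and 8 or 2.5% replicates 7 and 8. Acetatifactor baiA at 0.5% was called with RLE factors (2.43), no factors (2.12) and DESeq2 (2.48), and ranged from 1.32 to 2.50 with 1 library left out. Its slope was called with the same settings (1.25, 0.87 and 1.27). Its calls at 1% (1.96) and 2.5% (1.63) were lost once the genome total entered the fit. F. rodentium baiA at 0.5% turned positive with RLE factors (0.0028), DESeq2 (0.0070) and without libraries numbered 76 to 81 (0.057), whose numbers stand apart in the titles, and ranged from -0.12 to 0.041 with 1 library left out. Of the 6 libraries numbered 76 to 81, 4 are at 0.5%, 1 at 1% and 1 at 2.5%, and the 0% group holds no such library. Without them F. rodentium cbh_1 at 0.5% was -1.24 (edgeR, adjusted p = 0.0143). The slope of L.bacterium335 baiN_2 was 0.82 with a minimum of 50000 counts and turned with the covariate (-0.64). It ranged from 0.90 to 1.06 with 1 library left out, and no call is given because it includes the 0% group. Acetatifactor baiA against L.bacterium335 baiN_2 turned at 1% with RLE factors (0.35) and ranged from -0.60 to 0.082 with 1 library left out. At 2.5% it ranged from -1.50 to -0.82, again with no test. The added ratio of cbh_1 to baiA at 1% ranged from -0.17 to 0.20. Without libraries 76 to 81, unscaled differences at 0.5% turned for Acetatifactor baiN_1 (-0.32) and cbh (-0.066). Those of baiN_1 and baiN_2 of L.bacterium335 were then 1.10 and 2.86, against 0.66 and 1.87 with all libraries, given with no test. As CPM over the 6 tables, F. rodentium cbh_1 passed the permutation test at 0.5% (-1.26) and 1% (-1.63), and the bai sum at 2.5% was -0.19. The causes were not tested. Of 274 values under alternatives other than single libraries left out, 253 kept their direction and call. Acetatifactor with a minimum of 50000 counts was not run, since no 0% library reached it, and L.bacterium335 baiN_2 fell below the filter without the 5 most counted features. In the simulated 2.5% comparison, 2-fold changes were rarely recovered in Acetatifactor (10.2%) and L.bacterium335 (3.70%).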

Other observations

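Names alone can mislead in a search for bile salt hydrolases. The symbols bshB1 in Acetatifactor (253 counts over 40 libraries) and bshA in D. muris (183 counts) are those of bacillithiol synthesis, a pathway that makes a small thiol, and were not counted with cbh.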
